A study of Mus musculus with 33 samples.

Results

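RNA-seq libraries of the Apex1-deficient mouse embryonic stem cell (mESC) line were compared between undifferentiated mESCs and embryoid bodies (EBs) grown for 8 days without retinoic acid (RA). The libraries were taken by their labels, as all mESC and EB libraries of the Apex1 mutant, which gave 4 of the 33 mouse libraries of the series, 2 per stage. The question addressed is which steps of differentiation this line makes when no RA is given. All lines of the study derive from E14TG2a, an established mESC line, and were grown on gelatin in serum with leukemia inhibitory factor (LIF), which holds mESCs in the undifferentiated state. EBs are floating aggregates that form once LIF is withdrawn and cells can no longer attach. The Apex1 mutant is represented by 1 clone, #46, with technical duplicates at each stage. The mESC and EB libraries of 3 wild-type control clones, #1, #4 and #7, made 6 further libraries that gave the background of EB formation. Control cells had passed through the same transfection and clone picking with a plasmid that carried no guide. The mESC and EB libraries of Neil1 clones #7, #9 and #11 and of Neil2 clones #1, #11 and #14, 12 libraries in all, were used in 1 comparison at the end. No library described here received RA. The p-values rest on a spread estimated over all fitted libraries, which mixes technical duplicates of the Apex1 clone with separate clones of the other genotypes. Since the duplicates come from a single clone, the spread between Apex1 clones is not measured. The Apex1 mutation cannot be told apart from any other property of clone #46.

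APEX1 is the main endonuclease that cuts DNA at sites that have lost their base, and it acts after glycosylases such as NEIL1 and NEIL2 in base excision repair. It is also known as a redox factor for transcription factors. When LIF is withdrawn, mESCs first switch off the naive pluripotency network, with Klf4 and Esrrb among its factors, and pass through a formative state that resembles the epiblast of the implanted embryo and is marked by Fgf5 and Otx2. Cells of the EB interior then take up a primitive streak program led by T, Eomes and Mixl1, from which mesoderm and definitive endoderm derive. Cells at the EB surface form primitive endoderm, which lays down a basement membrane of laminin and collagen IV. Neural fates are favoured when RA is added, which was not done here.

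The guides that made the Apex1 mutation are shown because they place the deletion within the gene. The capitals mark the NGG motif that Cas9 needs next to the matched bases, and the 20 bases before it are the guide. Both match the plus strand of NCBIM37, the mouse genome build to which the reads had been aligned.
mmApex1_D209_1: tgcccgctaaaagtctcttaTGG
mmApex1_D209_2: aagatccggtccaaggctctTGG
With its motif, mmApex1_D209_1 lies at chr14:51546001-51546023 in coding exon 4 of Apex1, and mmApex1_D209_2 at chr14:51546586-51546608 in coding exon 5, the last of 5 exons. The expected breaks enclose 585 bases, chr14:51546018-51546602, which hold 483 of the 951 coding bases (50.8%). Apex1 spans chr14:51544643-51546814, and Tmem55b, chr14:51545745-51550531, overlaps it on the other strand. Of the 483 exon bases of Apex1 between the breaks, 0 lie outside the exons of Tmem55b, and of all 1422 exon bases 877 (61.7%) are shared. Reads were counted without regard to strand, so the gene count of Apex1 does not show whether the deletion is present. Apex1 had 75.9 and 71.8 CPM, counts scaled to a common library size, in the Apex1-deficient mESCs and 58.7 and 84.3 CPM in their EBs. In control mESCs it had 8.05, 7.62 and 17.4 CPM, and in control EBs 15.3, 14.9 and 12.3 CPM. All 4 libraries labelled Apex1 thus lay above all 6 control libraries, and the level in the clone did not change detectably from mESCs to EBs (log2 change −0.05 ± 0.30 SE, FDR 0.923). The study checked the mutant line by other means. It reports a smaller genotyping PCR product, which it reads as the expected deletion, and a western blot for APEX1.

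The 4 Apex1 libraries held 25992707 to 29463154 counts on genes, and the 6 control libraries 26628520 to 48350904. The duplicates were not copies of each other, with a chi-squared per degree of freedom of 5.578 between the mESC libraries and 11.4 between the EB libraries. Control mESC replicate 3 stood apart from the other control mESC libraries, at 61.34 and 62.1 against 9.552 between those, and list counts printed below that moved by over 1.5 times without it are followed by that value. The defining mESC transcripts Pou5f1, Nanog, Sox2, Esrrb and Zfp42 (Rex1, picked as a marker after its values were seen) were abundant in every mESC library, at 350 CPM or more in both Apex1 duplicates. Stage changes are log2 ratios of EBs over mESCs from edgeR's quasi-likelihood test, fitted on the 10 Apex1 and control libraries with Benjamini-Hochberg adjustment. The standard error (SE) after each was derived as the absolute log2 change divided by the square root of the F statistic of that test. A gene was called at a false discovery rate (FDR) below 0.1 and an absolute log2 change above 0.5, and CPM are scaled by TMM, edgeR's correction for library composition.

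Between mESCs and day 8 EBs of the Apex1 clone, 5157 of 16767 tested genes changed (30.8%), 2426 upward (14.5%) and 2731 downward (16.3%). The control clones changed 6912 of the same genes (41.2%), 3273 upward (19.5%) and 3639 downward (21.7%), with 3 libraries per stage in place of 2. The Apex1 count fell to 3023 when Apex1 mESC replicate 1 was left out and stayed within 1.5 times without any other library. With libraries scaled by their totals alone, the median log2 change of all genes in the clone moved by −0.152, and 1600 genes were called higher against 3643 lower. The test of the difference itself, an interaction term of genotype and stage, called 4466 genes (26.6%), 2117 with a more positive change in the Apex1 clone (12.6%) and 2349 with a more negative one (14%). By totals alone this split was 1399 against 3193, after a median shift of −0.138. The shares of all tested genes given in this paragraph are the background for the list counts that follow. The number of differences was 6494 without control mESC replicate 3, 2648 without Apex1 EB replicate 1, and 2122 and 2926 without Apex1 mESC replicates 1 and 2.

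The clone shared part of the control change in either direction. Of the 3273 genes that rose in the controls, 1167 (35.7%) rose in the Apex1 clone, where they were 48.1% of the 2426 genes that rose, and 129 fell. Of the 3639 genes that fell in the controls, 1502 (41.3%) fell in the clone, 55.0% of its 2731, and 109 rose. The median log2 change over the genes raised in the controls was 1.09 in the controls, whose values chose the genes, and 0.42 in the clone, and over those lowered it was −1.14 and −0.56. A further 1150 genes rose and 1100 fell in the clone without a call in the controls, and the difference itself was called for 620 and 516 of them.

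Naive pluripotency factors fell in part. Of 14 listed genes, 6 fell and 1 rose in the Apex1 clone, with a median log2 change of −0.41, and 12 fell and 1 rose in the controls, with a median of −1.33. The median over all genes was 0.005 in the clone and −0.021 in the controls. Klf4, a naive factor that LIF sustains, was at 159 and 181 CPM in Apex1-deficient mESCs and at 37.4 and 31 CPM in their EBs. It fell fully, by 2.32 ± 0.17 on the log2 scale (FDR 1.7e-05), as in the controls, where it went from 216 to 291 CPM in mESCs to 38.1 to 46.7 CPM in EBs (log2 change −2.64 ± 0.14). Its difference from the control change was 0.32 ± 0.21 and was not called.

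Nanog, a homeodomain factor of the naive network, was at 616 and 581 CPM in the clone's mESCs and at 500 and 472 CPM in its EBs. Control mESCs had 671, 704 and 810 CPM and control EBs 320, 330 and 390 CPM, so the clone's EBs lay between the control stages and overlapped neither. The stage change of Nanog was −0.30 ± 0.13 in the clone (FDR 0.11) and −1.07 ± 0.11 in the controls, a difference of 0.77 ± 0.17 (FDR 0.0107). Esrrb, an orphan nuclear receptor of the same network, had 569 and 564 CPM in the mESCs and 396 and 395 CPM in the EBs of the clone, against 175 to 181 CPM in control EBs. Its call in the clone, −0.52 ± 0.12, sat at the limit and was −0.50 and −0.49 without Apex1 EB replicate 1 or 2, while its difference of 1.08 ± 0.15 from the controls was called in every such fit. Tcl1, a coactivator of AKT that mESCs express, stayed at 39.5 and 38.8 CPM in the EBs of the clone after 36.6 and 34.2 CPM in its mESCs, where control EBs had 11.4 to 19 CPM after 51.0 to 60.4 CPM. The stage change was 0.14 ± 0.19 in the clone and −1.88 in the controls, a difference of 2.02 ± 0.25 (FDR 0.00041). Dppa3 (Stella), a germ cell and naive marker, was the naive gene that rose, from 11.4 and 10.7 CPM to 47.8 and 53.2 CPM (log2 change 2.19 ± 0.22), and it rose in the controls as well, by 1.17 on that scale.

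Of the 12 general pluripotency genes, 4 rose and 1 fell in the clone (median 0.24), while 7 fell and 1 rose in the controls (median −0.66). The difference was called for 7, all more positive in the clone, while without control mESC replicate 3 a call in the other direction was added, for 1 gene. Pou5f1 (Oct4), the core pluripotency factor, was at 630 and 687 CPM in Apex1-deficient mESCs and at 674 and 800 CPM in their EBs. Control mESCs had 868 to 874 CPM and control EBs 391 to 407 CPM, so the EBs of the clone kept more Pou5f1 than any control EB library although its mESCs had less than any control mESC library. The stage change was 0.16 ± 0.12 in the clone (FDR 0.31) and −1.13 ± 0.10 in the controls, a difference of 1.30 ± 0.15 (FDR 0.00028).

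Sox2, which partners Oct4 and also marks neural progenitors, had 350 and 365 CPM in the mESCs and 457 and 554 CPM in the EBs of the clone. It rose by 0.50 ± 0.14, a call lost without Apex1 EB replicate 2 (0.38) or Apex1 mESC replicate 1 (0.48) and with a replicate block. Utf1, a chromatin factor of pluripotent cells, rose from 94.7 and 143 CPM to 254 and 234 CPM (log2 change 1.03 ± 0.23), and Dppa5a, an RNA-binding protein of mESCs, from 1380 and 1450 CPM to 3380 and 3200 CPM (1.22 ± 0.19). Tdgf1 (Cripto), a co-receptor for NODAL, was the general pluripotency gene that fell, from 1170 and 1100 CPM to 676 and 662 CPM (−0.76 ± 0.20, FDR 0.0135), less than in the controls (−2.12). The summed level of the 12 genes went from 5590 to 5620 CPM in the clone's mESCs to 7210 to 7420 CPM in its EBs, and from 6440 to 7350 CPM to 4100 to 4520 CPM in the controls. The rise of the sum in the clone rests on Dppa5a, which by itself gained about as much. Of the 12 genes, 7 were not called between the stages of the clone. In bulk RNA, cells that remained pluripotent and cells that each kept part of this RNA cannot be told apart. In EBs, both Apex1 libraries lay above every control library for 11 of these 12 genes and for 10 of the 14 naive genes, where 28.4% of all tested genes did.

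**Figure D1:**
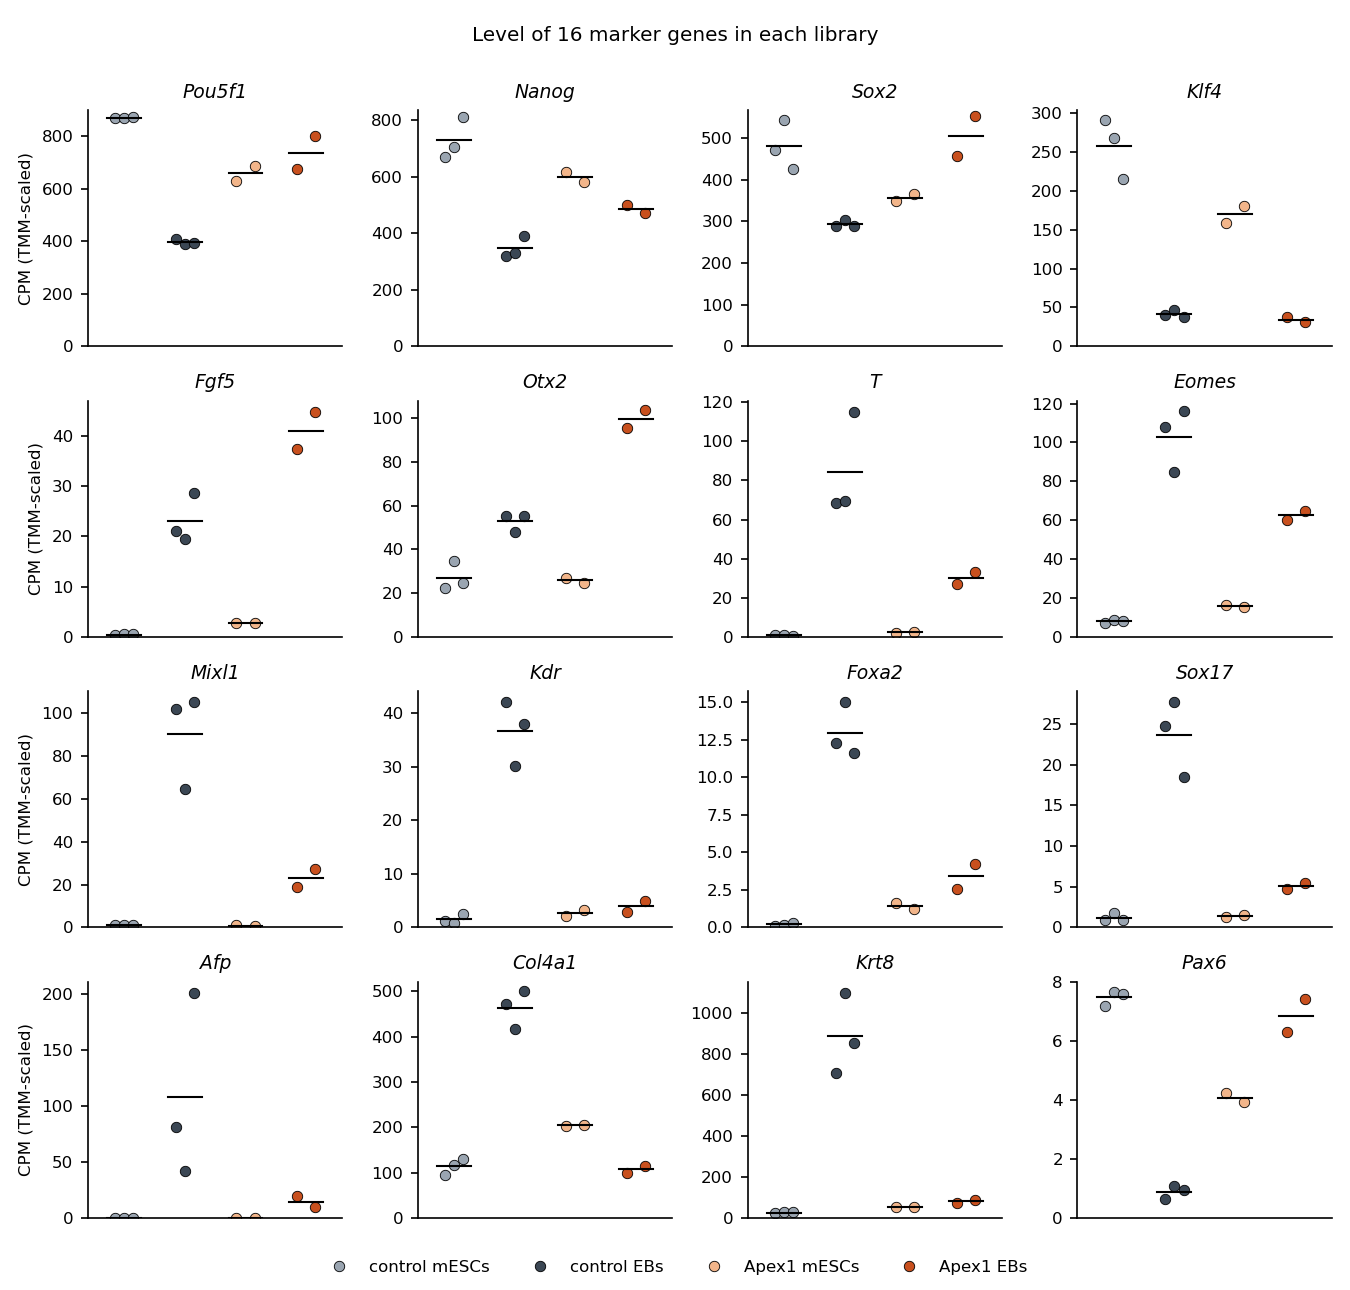
Levels of 16 marker genes in CPM (TMM-scaled, y axis) in control mESCs, control EBs, Apex1 mESCs and Apex1 EBs (x axis), with each library as a point and bars at the group mean. Pou5f1 stayed at 674 and 800 CPM in Apex1 EBs against 391 to 407 CPM in control EBs, whereas Klf4 fell to 31 and 37.4 CPM, and T reached 27.1 and 33.1 CPM against 68.4 to 115 CPM in the controls.

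Formative and primed epiblast genes rose. Of 11 tested genes of this list, 9 rose and 0 fell in the clone (median 1.48), and 7 rose and 1 fell in the controls (median 0.59). All 7 genes that the controls raised rose in the clone too. The number in the clone was 8 or 9 whichever of the 10 libraries was left out. Fgf5, a secreted growth factor and the classical marker of the epiblast after implantation, was at 2.78 and 2.79 CPM in Apex1-deficient mESCs and at 37.4 and 44.8 CPM in their EBs, which was 3.88 ± 0.25 higher on the log2 scale (FDR 8.4e-06). Control mESCs had 0.288 to 0.595 CPM and control EBs 19.4 to 28.7 CPM, so the clone lay above the controls at both stages while its change was smaller by 1.75 ± 0.36 (FDR 0.0065). Otx2, a homeodomain factor that drives the formative state, rose from 27 and 24.7 CPM to 95.6 and 104 CPM (1.95 ± 0.18, FDR 5.5e-05), more than in the controls, where it reached 47.8 to 55.4 CPM (difference 0.99 ± 0.23). Dnmt3b, a de novo DNA methyltransferase, rose from 195 and 189 CPM to 307 and 329 CPM (0.73 ± 0.19), and its difference from the control change was 0.16 ± 0.24 and not called.

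The primitive streak program rose in the clone to lower levels than in control EBs. Of 21 streak and early mesoderm genes, 14 rose and 0 fell in the clone, with a median log2 change of 1.97, against 18 and 0 with a median of 3.67 in the controls. All 14 were among the 18. The difference was called for 13, all more negative in the clone, with and without control mESC replicate 3. The summed level of the 21 genes was 49.0 and 49.7 CPM in the clone's mESCs and 173 and 205 CPM in its EBs, while the controls went from between 27.2 and 30.6 CPM to between 608 and 701 CPM. In EBs, both Apex1 libraries lay below every control library for 17 of the 21, where 28.3% of all tested genes did.

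T (brachyury), the transcription factor that defines the streak, was at 2.13 and 2.47 CPM in Apex1-deficient mESCs and at 27.1 and 33.1 CPM in their EBs. It rose by 3.71 ± 0.28 on the log2 scale (FDR 1.8e-05). Control EBs had 68.4, 69.6 and 115 CPM after 0.655 to 1.08 CPM, a rise of 6.60, and the difference was −2.88 ± 0.39 (FDR 0.00066). Eomes, a T-box factor needed for definitive endoderm and early mesoderm, rose from 16.4 and 15.6 CPM to 60.3 and 64.9 CPM (1.97 ± 0.16, FDR 2.1e-05), with 84.7 to 116 CPM in control EBs (difference −1.70). Mixl1, a homeodomain factor of the streak, rose from 1.03 and 0.645 CPM to 18.8 and 27.2 CPM (4.76 ± 0.32), against 64.4 to 105 CPM in control EBs, and its difference of −1.84 ± 0.45 was no longer called without Apex1 mESC replicate 1 (−1.44, FDR 0.157).

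Fgf8, the growth factor that moves cells out of the streak, rose from 0.161 and 0.107 CPM to 9.95 and 11.1 CPM, by 6.23 ± 0.41 (FDR 8.4e-06). Its rise in the controls was 6.79, and the difference of −0.55 was not called, although control EBs stood at 34.8 to 57.4 CPM. Cdx2, a factor of posterior mesoderm and of trophoblast, rose from 1.94 and 2.79 CPM to 8.92 and 11.0 CPM (2.08 ± 0.30), against 48.0 to 81.1 CPM in control EBs (difference −4.37 ± 0.42, FDR 8.3e-05). Every one of these streak genes was therefore higher in both Apex1 EB libraries than in both Apex1 mESC libraries and lower than in every control EB library.

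The mesoderm receptors Kdr and Pdgfra were not called between the stages of the clone. Both were picked from the list after their values were seen. Kdr (Flk1), the VEGF receptor of blood and vessel precursors, had 2.03 and 3.22 CPM in Apex1-deficient mESCs and 2.93 and 4.85 CPM in their EBs, so the stages overlapped (log2 change 0.57 ± 0.40, FDR 0.298), while control EBs had 30.2 to 42.0 CPM (difference −4.08 ± 0.53). Pdgfra, the receptor of paraxial mesoderm, had 5.91 and 6.05 CPM and then 5.63 and 6.41 CPM (0.01 ± 0.24), against 25.9 to 36.9 CPM in control EBs (difference −3.15 ± 0.32). Flt1, a VEGF receptor of endothelium, rose from 5.75 and 4.66 CPM to 11.5 and 14.3 CPM (1.31 ± 0.30), with 26.7 to 53.2 CPM in control EBs.

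Lists for differentiated mesoderm showed no shared direction in the clone. Of 16 cardiac and striated muscle genes, 4 rose and 6 fell (median −0.34), but 1 rose without Apex1 EB replicate 2 and 0 without Apex1 mESC replicate 1. In the controls 7 rose and 5 fell. Ttn, the giant spring protein of muscle, was among those that fell, from 52.6 and 46.0 CPM to 7.57 and 6.60 CPM (−2.80 ± 0.44), as it did in the controls (−2.18). Of 13 endothelial genes, 5 rose and 3 fell in the clone (median −0.03), and 5 rose and 3 fell in the controls. Of the 5 that rose in the controls, 3 rose in the clone. Tek, the angiopoietin receptor, fell in the clone from 50.5 and 46.6 CPM to 21.5 and 21.3 CPM (−1.18 ± 0.25). Of 11 tested primitive erythroid genes, 2 rose and 4 fell, and these calls rested on single libraries. Without Apex1 EB replicate 2, Apex1 mESC replicate 1 or Apex1 mESC replicate 2 the number that rose was 0. The number that fell was 0 without Apex1 EB replicate 1 or Apex1 mESC replicate 2 and 1 without Apex1 EB replicate 2 or Apex1 mESC replicate 1. Hbb-bh1, an embryonic globin, had a count in only 1 of the 4 Apex1 libraries, EB replicate 2, at 0.112 CPM.

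Genes that Wnt and BMP signals switch on as feedback, Axin2 among them, rose less widely than in the controls. Of 12 in the list, 6 rose and 1 fell in the clone (median 0.51), and 8 rose and 0 fell in the controls (median 1.16), with the difference called for 8, all more negative in the clone. The 6 became 3, 2 and 3 without Apex1 EB replicate 2, Apex1 mESC replicate 1 and Apex1 mESC replicate 2, and the 8 became 5 without Apex1 EB replicate 2. Without control mESC replicate 3, and with the replicate block, 1 gene was called more positive. Axin2, a target and inhibitor of Wnt signalling, was at 18.8 and 19.3 CPM in Apex1-deficient mESCs and at 34.1 and 34.3 CPM in their EBs (0.84 ± 0.21, FDR 0.012), against 66.5 to 103 CPM in control EBs after 8.33 to 13.3 CPM (difference −2.13 ± 0.28). Id1, a target of BMP, fell in the clone from 41.1 and 58.4 CPM to 28.1 and 26.4 CPM (−0.87 ± 0.20) and rose in the controls to 88.0 to 132 CPM. That fall was not called without Apex1 mESC replicate 2 (−0.58, FDR 0.11), while the difference of −1.79 ± 0.26 was.

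**Figure D2:**
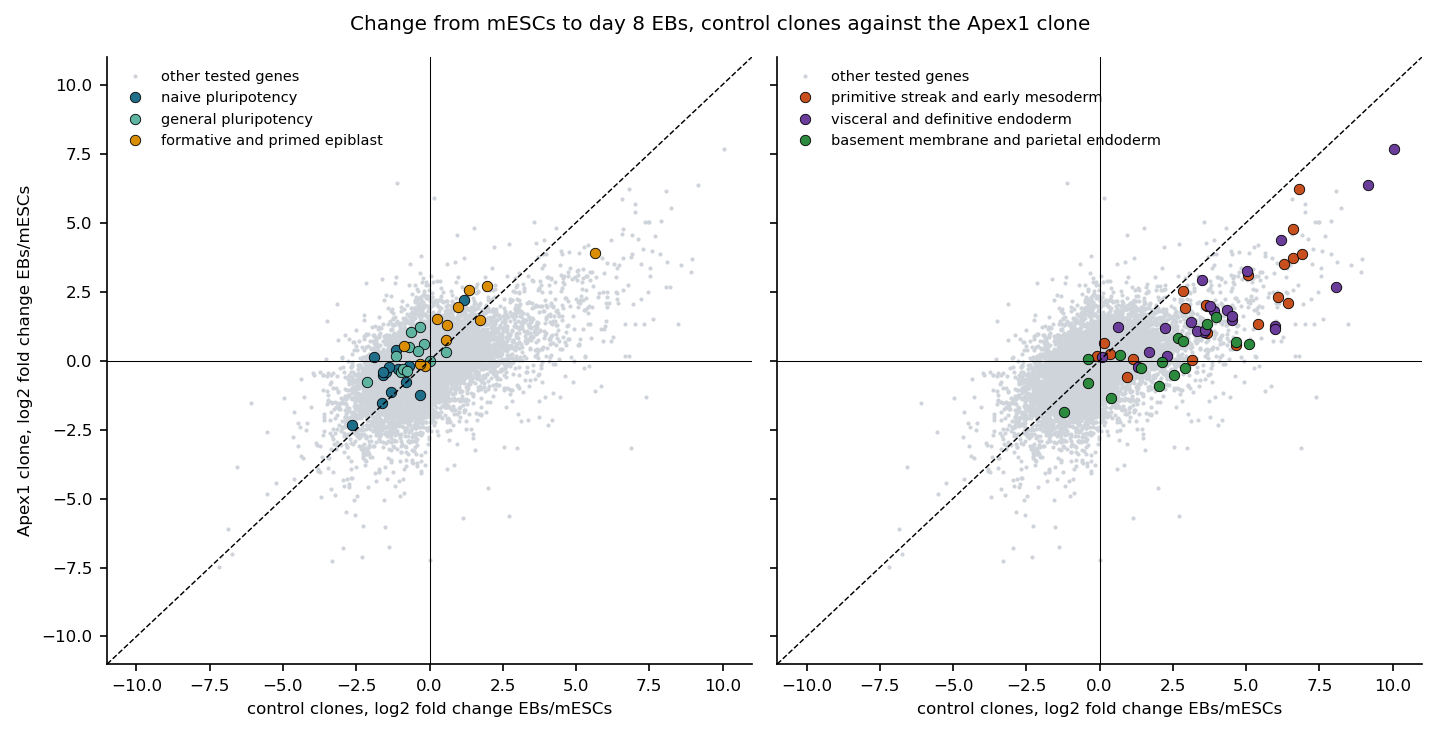
Log2 change from mESCs to EBs in the control clones (x axis) against that in the Apex1 clone (y axis), 1 point per gene. Pluripotency and epiblast genes are in the left panel, streak, endoderm and basement membrane genes in the right, and the dashed line marks equal change. Points for streak and endoderm genes lie mostly right of 0 and below the line, with medians of 3.67 and 3.76 in the controls against 1.97 and 1.38 in the clone.

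Endoderm genes rose widely in the clone and stayed low. Of 23 tested visceral and definitive endoderm genes, 19 rose and 0 fell, with a median log2 change of 1.38, against 21 and 0 with a median of 3.76 in the controls, and 18 of the 21 were shared. The number that rose was 14 to 19 whichever library was left out. The difference was called for 15, all more negative in the clone. The summed level was 78.1 and 78.8 CPM in the clone's mESCs and 201 and 220 CPM in its EBs, against 652 to 1300 CPM in control EBs. In EBs, both Apex1 libraries lay below every control library for 19 of the 23, against 28.3% of all tested genes.

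Gata6, the zinc finger factor that starts primitive endoderm, was at 3.49 and 2.79 CPM in Apex1-deficient mESCs and at 6.18 and 6.86 CPM in their EBs. Control EBs had 20.7 to 23 CPM, and the log2 changes were 1.05 ± 0.26 (FDR 0.0101) and 3.55, a difference of −2.50 (FDR 0.00063). Sox17, a factor of both kinds of endoderm, rose from 1.29 and 1.54 CPM to 4.76 and 5.40 CPM (1.84 ± 0.33, FDR 0.00212), against 18.5 to 27.7 CPM in control EBs (difference −2.50). Foxa2, a forkhead factor of definitive and visceral endoderm, had 1.61 and 1.25 CPM and then 2.54 and 4.25 CPM. Its rise of 1.24 ± 0.33 was not called without Apex1 EB replicate 2 (0.84) or Apex1 mESC replicate 2 (1.09), and its difference of −4.76 from the controls, which reached 11.6 to 15.0 CPM, was called in every fit that left out a library.

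Secreted products of visceral endoderm were present at low levels. Afp, the fetal serum protein alpha-fetoprotein, rose from 0.0968 and 0.251 CPM to 19.2 and 9.65 CPM (log2 change 6.37 ± 1.01, FDR 0.00154), against 42.1, 80.8 and 201 CPM in control EBs. Ttr, the carrier of thyroid hormone and retinol, had 3 counts over both Apex1 mESC libraries, and its pooled ratio of EBs to mESCs was 216, with 12.6 and 9.54 CPM in the EBs and 35.8 to 79.2 CPM in control EBs. In the main fit the difference from the control change was called for neither gene. That of Afp was called by DESeq2 (−2.8, FDR 0.0766) and with a replicate block with crossed Apex1 numbers (−2.68, FDR 0.0816). Apob, the apolipoprotein that visceral endoderm secretes, had 11.3 and 10.1 CPM in the mESCs and 24.3 and 22.8 CPM in the EBs of the clone, against 56.3, 123 and 196 CPM in control EBs. Its rise of 1.13 ± 0.40 (FDR 0.0515) was not called when any of the 4 Apex1 libraries was left out (1.08 to 1.22), nor without control mESC replicate 3 (1.13, FDR 0.19), whereas its difference of −4.84 ± 0.57 was. Fgb, the fibrinogen beta chain, rose from 0.0968 and 0.107 CPM to 0.753 and 0.596 CPM (2.67 ± 0.69), with 2.68 to 6.84 CPM in control EBs.

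Basement membrane and parietal endoderm genes took another course. Of 16 listed genes, 5 rose and 5 fell in the clone (median 0.0), while 12 rose and 1 fell in the controls (median 2.33). The 5 that rose were 2 without Apex1 EB replicate 2 and 2 without Apex1 mESC replicate 1. The difference was called for 13, all more negative in the clone, and for 14 without control mESC replicate 3. Col4a1, a collagen IV chain, was at 203 and 206 CPM in Apex1-deficient mESCs and at 100 and 114 CPM in their EBs, a fall of 0.93 ± 0.15 on the log2 scale (FDR 0.00122). Control mESCs had 95.7 to 131 CPM and control EBs 418 to 501 CPM, so the clone began above every control and ended below, and the difference was −2.96 (FDR 1e-05). Its direction in the clone was thus the reverse of that in the controls.

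Lama1, the laminin alpha 1 chain, also fell in the clone, from 120 and 104 CPM to 41.8 and 44.8 CPM (−1.37 ± 0.21, FDR 0.00091), where control EBs had 108 to 174 CPM after 87.5 to 115 CPM (0.38, not called). Sparc, a collagen-binding matrix protein of parietal endoderm, had 280 and 275 CPM and then 240 and 223 CPM in the clone (−0.26 ± 0.12, not called) and rose in the controls to 586 to 707 CPM (1.41). Nid1 (nidogen), which links laminin to collagen IV, fell in both, from 212 and 192 CPM to 53 and 58.8 CPM in the clone (−1.85 ± 0.18). Krt8, a keratin of the outer EB epithelium and of trophoblast, had 51.0 and 54.8 CPM and then 71.9 and 89.1 CPM in the clone, against 710 to 1100 CPM in control EBs. Its difference of −4.49 (FDR 2.7e-06) was called whichever library was left out, and its rise of 0.60 ± 0.19 was not called without Apex1 EB replicate 2 (0.46) or Apex1 mESC replicate 1 (0.56). Fst (follistatin), an inhibitor of activin, was among the 5 that rose, from 8.65 and 7.31 CPM to 23.8 and 24.4 CPM (1.59 ± 0.24).

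**Figure D3:**
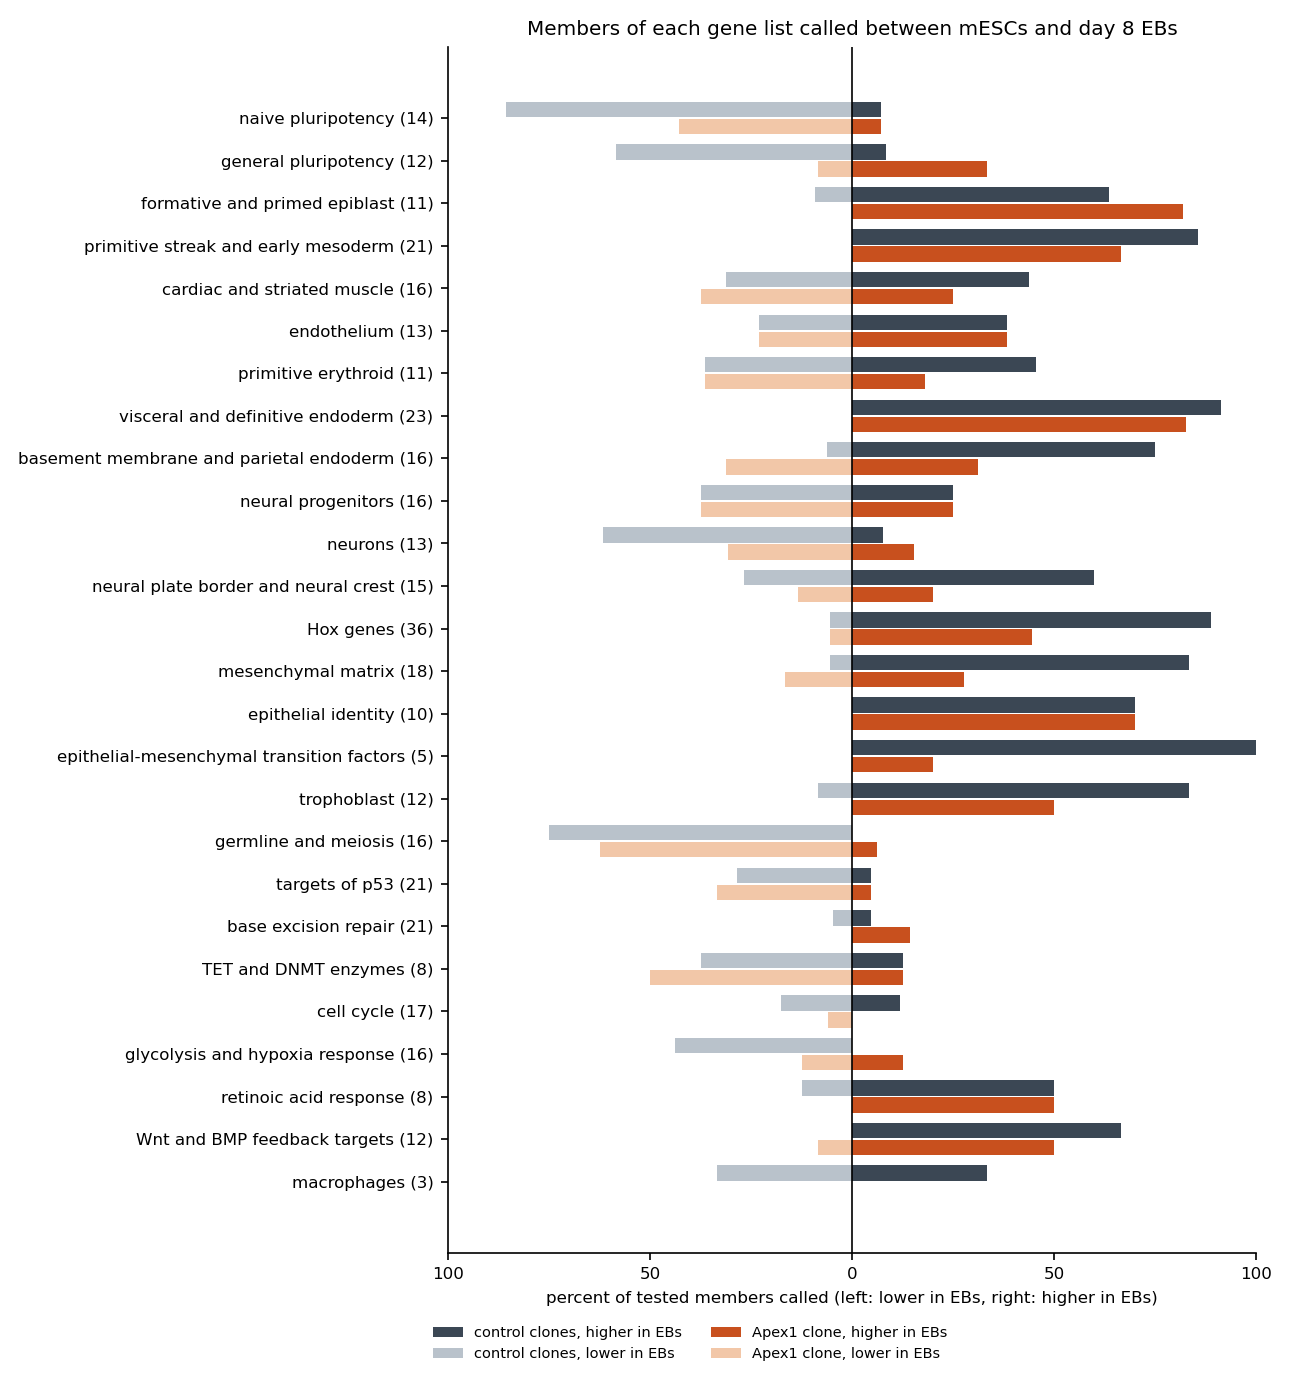
Percent of the tested members of each gene list that were called lower (left of 0) or higher (right of 0) in EBs than in mESCs, in the control clones and in the Apex1 clone. Epithelial genes rose in 7 of 10 in both genotypes, whereas 12 of 16 basement membrane genes rose in the controls and 5 of 16 in the clone.

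Most epithelial genes rose in both genotypes, and in the clone most genes of mesenchyme did not. Of 10 epithelial genes, 7 rose and 0 fell in the clone (median 1.23), and the same 7 rose in the controls (median 1.07). Epcam, an adhesion molecule, rose from 67.7 and 68.2 CPM to 140 and 154 CPM (1.12 ± 0.12), and Esrp1, the splicing factor of epithelial isoforms, from 35.6 and 35.3 CPM to 82.3 and 82.5 CPM (1.22 ± 0.11, FDR 4.4e-05). Control EBs had 135 to 153 CPM of Epcam and 82.0 to 86.7 CPM of Esrp1, so the EBs of both genotypes overlapped for both genes. The difference from the control change was called for 2 of the 10, both more positive in the clone. It was 0.56 ± 0.15 for Epcam (FDR 0.0235), whose mESC level in the clone lay below the 91 to 105 CPM of control mESCs, and 1.18 ± 0.43 for Crb3, a regulator of cell polarity (FDR 0.0749). The call for Epcam was lost without Apex1 mESC replicate 1 (0.57), and that for Crb3 without any library but control EB or mESC replicate 3 and with the replicate block (1.11, FDR 0.148). For Esrp1 the difference was 0.22 ± 0.14 and not called. Cdh1 (E-cadherin) was at 355 and 331 CPM and then at 431 and 452 CPM (0.36, not called).

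Of 5 tested genes of the epithelial-mesenchymal transition, 1 rose in the clone and 5 rose in the controls (medians 0.44 and 2.35). The difference was called for 4. The 1 that rose, Twist1, lost its call without any of the 4 Apex1 libraries or without control mESC replicate 3 (0.92 to 1.30). Zeb2, a repressor of E-cadherin, had 1.39 and 1.47 CPM and then 1.63 and 2.50 CPM in the clone (0.53 ± 0.32, not called), against 9.27 to 12.7 CPM in control EBs (difference −2.14). Cdh2 (N-cadherin), the cadherin of migrating mesoderm, had 17.8 and 15.3 CPM and then 18.4 and 26.5 CPM (0.44, FDR 0.131), where control EBs reached 79.1 to 124 CPM from 6.17 to 6.61 CPM (difference −3.56, FDR 1.9e-05).

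Of 18 tested genes of mesenchymal matrix, 5 rose and 3 fell in the clone (median 0.04) against 15 and 1 in the controls (median 2.20), and the difference was called for 12, all more negative. Col1a1, the main chain of fibrillar collagen, was at 3.45 and 4.23 CPM and then at 15.9 and 20.6 CPM in the clone (2.25 ± 0.39, FDR 0.00173), against 95.8 to 194 CPM in control EBs (difference −2.37). Tnc (tenascin-C) rose from 0.452 and 0.573 CPM to 1.51 and 3.17 CPM (2.19 ± 0.48), with 9.74 to 18.2 CPM in control EBs. Vim (vimentin), the intermediate filament of mesenchyme, fell from 174 and 187 CPM to 57.2 and 73.7 CPM (−1.46 ± 0.24, FDR 0.00135) and rose in the controls (0.60), so that every control EB library, at 243 to 450 CPM, was above both of the clone. Of 12 tested trophoblast genes, 6 rose and 0 fell in the clone (median 0.84), 3 without Apex1 mESC replicate 2, against 10 and 1 in the controls (median 2.82), and 5 of the 10 were shared.

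Neural genes that were tested showed no shared rise in these EBs, grown without RA. Of 24 listed neural progenitor genes, 16 were tested and 8 were not. In the clone 4 rose and 6 fell, and in the controls 4 rose and 6 fell, with medians of −0.69 in both. Of the 4 genes that rose in the controls, 2 rose in the clone. In the clone the rises were 1 without Apex1 EB replicate 2, 1 without Apex1 mESC replicate 1 and 2 without Apex1 mESC replicate 2, and the falls were 3 without Apex1 EB replicate 2 and 3 without Apex1 mESC replicate 2. Pax6, a regulator of neuroectoderm, was at 4.23 and 3.94 CPM in Apex1-deficient mESCs and at 6.30 and 7.42 CPM in their EBs. Control mESCs had 7.19 to 7.66 CPM and control EBs 0.640 to 1.07 CPM, so the clone was lower than the controls as mESCs and higher as EBs. The rise of 0.75 ± 0.24 in the clone (FDR 0.0364) was lost without Apex1 EB replicate 2 (0.65) or Apex1 mESC replicate 1 (0.81) or 2 (0.71), while the difference of 3.86 ± 0.33 from the fall of 3.11 in the controls (FDR 3.7e-05) was called whichever library was left out. Ncam1, an adhesion molecule, had the largest fall of the list in the clone, from 29.4 and 26.6 CPM to 7.49 and 8.57 CPM (−1.80 ± 0.18), and fell in the controls by 1.31, with no called difference.

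Of 13 tested neuronal genes, 2 rose and 4 fell in the clone (median −0.18) and 1 rose and 8 fell in the controls (median −1.0). The 2 rises were 1 without either Apex1 EB library and 0 without either Apex1 mESC library. The difference from the control change was called for 6 of the 13, 4 more positive in the clone and 2 more negative. The 2 were 0 without either Apex1 EB library and 1 without either Apex1 mESC library or control EB replicate 3. Elavl3, an RNA-binding protein of neurons, was at 7.07 and 7.13 CPM and then at 4.80 and 3.24 CPM in the clone (−0.82 ± 0.36, not called), against 11.1 to 26.8 CPM in control mESCs and 2.38 to 3.40 CPM in control EBs (−2.74), a difference of 1.91 ± 0.47 (FDR 0.0156). Ina, a neuronal intermediate filament, rose in the clone from 41.5 and 40.5 CPM to 71.2 and 69.0 CPM (0.77 ± 0.24) and fell in the controls from 42.7 to 77.5 CPM to 28.3 to 41.9 CPM, a difference of 1.45 ± 0.31 (FDR 0.00775). Its rise was not called without Apex1 EB replicate 1 (0.78) or Apex1 mESC replicate 1 (0.80) or 2 (0.77), and 14.1% of its exon bases are shared with Nt5c2. Tubb3, a neuronal tubulin, was at 85.0 and 90.7 CPM and then at 29.5 and 27.6 CPM in the clone (−1.62 ± 0.26), and Mapt (tau) at 28 and 27.6 CPM and then at 7.77 and 6.26 CPM (−1.99 ± 0.22). Both fell in the controls too, by 1.92 and 2.12 on the log2 scale, and for neither was a difference called.

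Of 15 tested genes of the neural plate border and neural crest, 3 rose and 2 fell in the clone (median 0.27) and 9 rose and 4 fell in the controls (median 0.86). These 3 rises and 2 falls are near the shares of all tested genes, of which 14.5% rose and 16.3% fell. The difference from the control change was called more negative for 6 of the 15 and more positive for 1 (median −1.25). Of all tested genes, these shares were 14% and 12.6%. The 1 moved in 9 of the 10 fits that left out a library, the 6 in 0. In EBs, both Apex1 libraries lay below every control library for 9 of the 15 and above for 3, where 28.3% and 28.4% of all tested genes did. The 2 falls were 1, 0 and 0 without Apex1 EB replicate 1, Apex1 EB replicate 2 and Apex1 mESC replicate 1. Msx1, a homeodomain factor of the plate border that mesoderm also expresses, rose from 1.19 and 1.33 CPM to 10.1 and 10.5 CPM (3.03 ± 0.32, FDR 0.00012), against 64.1 to 121 CPM in control EBs (difference −3.32 ± 0.44). Pax3, a plate border and crest factor, had 0.194 and 0.179 CPM and then 0.317 and 0.186 CPM, with no call (0.42 ± 0.65), while control EBs had 0.764 to 1.38 CPM. The difference of −3.37 was not called without Apex1 mESC replicate 1 (−3.30, FDR 0.102), and at under 2 CPM in every library this gene rests on few counts.

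Hox genes, which give cells their position along the body axis and are opened in order from paralogue 1 to 13, rose in smaller number in the clone than in the controls. Of 36 tested, 16 rose and 2 fell in the clone (median 1.44), against 32 and 2 in the controls (median 3.31), and all 16 were among the 32. The 16 were 7 without Apex1 EB replicate 2 and 7 without Apex1 mESC replicate 2, and the 2 falls were 1 without any single Apex1 library. The difference was called for 12, all more negative, and for 10 without control mESC replicate 3. Hoxa2 rose from 0.194 and 0.215 CPM to 0.872 and 1.16 CPM (2.29 ± 0.46), and in the controls by 1.98, with no called difference (0.31 ± 0.60). Of its exon bases, 11% are shared with an overlapping gene.

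Hoxc8, a trunk gene, had 0.258 and 0.322 CPM and then 0.634 and 0.820 CPM in the clone, which was not called (1.32 ± 0.66) but was with the replicate block (1.31, FDR 0.0689), and control EBs had 3.19 to 9.52 CPM (difference −5.70 ± 1.04, FDR 0.00368). Hoxa9 and Hoxd9, picked after their values were seen, stood between, at 2.06 and 3.84 CPM and at 1.55 and 3.28 CPM in the clone's EBs against 6.01 to 15.6 and 9.88 to 16.1 CPM in control EBs. Hoxc13, at the other end of its cluster, fell from 7.94 and 8.28 CPM to 3.17 and 3.17 CPM (−1.35 ± 0.27), as in the controls (−1.68). The plot of Hox changes by paralogue number shows both genotypes side by side, with the error of each change. Of 8 genes of the RA response, 4 rose and 0 fell in the clone (median 0.40) against 4 and 1 in the controls (median 0.74). Cyp26a1, the enzyme that breaks down RA, rose from 2.23 and 2.36 CPM to 16.1 and 26.4 CPM (3.21 ± 0.26, FDR 2.5e-05), against 89.3 to 118 CPM in control EBs (difference −2.25).

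**Figure D4:**
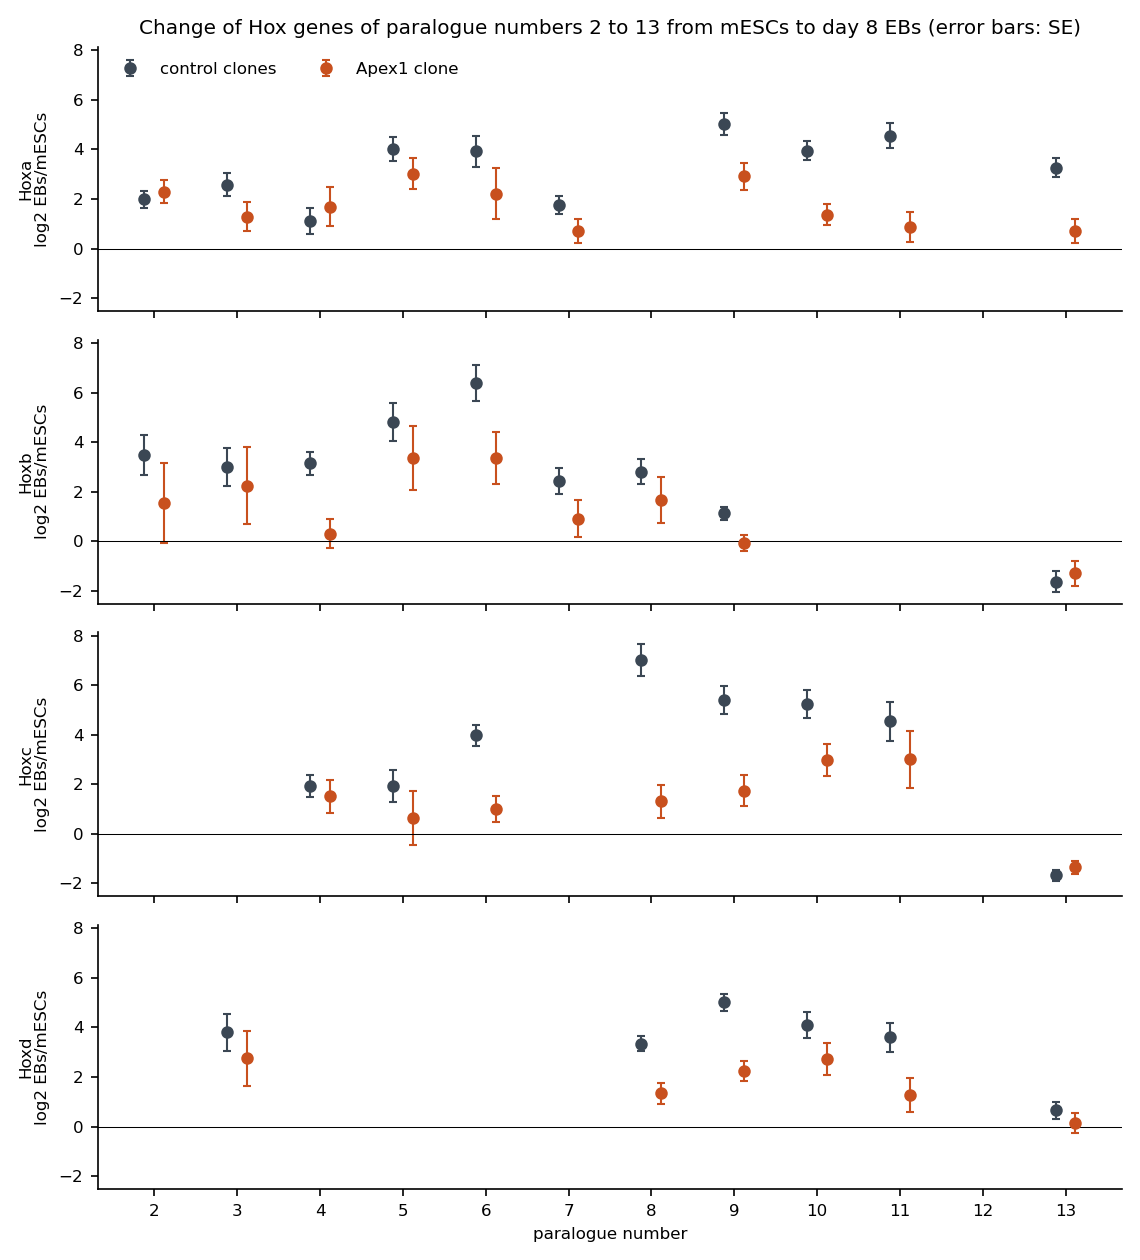
Log2 change from mESCs to EBs (y axis, bars are SE from the fit) of Hox genes of clusters a to d with paralogue numbers 2 to 13, ordered by paralogue number (x axis), in the control clones and in the Apex1 clone. Hoxa2 rose by 1.98 in the controls and 2.29 in the clone, whereas Hoxc8 changed by 7.02 in the controls and 1.32 in the clone.

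Germline genes that mESCs express were lowered. Of 16, 10 fell and 1 rose in the clone (median −0.88) and 12 fell and 0 rose in the controls (median −0.65). The falls were 6 without Apex1 EB replicate 2, and the rise, of Rec8, was lost without Apex1 mESC replicate 1 (0.80) or 2 (0.75), while 2 genes rose without control mESC replicate 3. Stra8, a gene of meiotic entry, fell from 55.1 and 54.2 CPM to 14.5 and 8.16 CPM (−2.27, FDR 0.00348), against −4.49 in the controls, a difference of 2.21 that was not called without Apex1 EB replicate 1 (1.77). Asz1, which guards the germline against transposons, fell from 3.20 and 3.37 CPM to 0.634 and 0.522 CPM (−2.50 ± 0.42), as in the controls (−2.28). Of 8 TET and DNMT enzymes, which remove and place DNA methylation, 4 fell and 1 rose in the clone. Tet2 fell from 170 and 150 CPM to 51.7 and 54.2 CPM (−1.59 ± 0.12), as it did in the controls (−2.16). Tet3 fell from 15.5 and 15.2 CPM to 5.27 and 6.56 CPM (−1.37 ± 0.20, FDR 0.00065), but in the controls it was at 13.3 to 16.8 CPM and then at 15.6 to 21.1 CPM (0.33, not called, difference −1.71 ± 0.25).

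Targets of p53 were high in the clone before differentiation and were lowered in part. In mESCs, both Apex1 libraries lay above every control library for 15 of 21 listed targets, where 27% of all tested genes did, and the same number did so in EBs. Their summed level was 3630 and 3740 CPM in the clone's mESCs against 2080 to 2420 CPM in control mESCs, and 2830 and 2900 CPM in its EBs against 1850 to 2170 CPM. Between the stages, 7 fell and 1 rose in the clone (median −0.38) and 6 fell and 1 rose in the controls (median −0.24). Ccng1 (cyclin G1) fell from 656 and 621 CPM to 379 and 403 CPM (−0.71 ± 0.14), and Perp, a membrane protein of p53-dependent death and of desmosomes, from 121 and 126 CPM to 52.3 and 52.5 CPM (−1.23 ± 0.23), with 25.3 to 48.0 CPM in all control libraries. The target that rose was Cdkn1a (p21), an inhibitor of the cell cycle, from 88.6 and 92.6 CPM to 143 and 137 CPM (0.63), and it rose in the controls as well (1.13).

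Of 21 base excision repair genes, 3 rose and 0 fell in the clone (median 0.16), a share of risers close to the 14.5% of all genes, and the difference from the controls was called for 4, all more positive, and for 7 more positive and 3 more negative without control mESC replicate 3. Of 17 cell cycle genes, 0 rose and 1 fell in the clone by edgeR, with Ccnd3 (cyclin D3) at 139 and 145 CPM and then at 86.2 and 76.2 CPM (−0.81 ± 0.15), and without control mESC replicate 3 these counts were 1 and 2. Of 16 genes of glycolysis and the hypoxia response, 2 rose and 2 fell in the clone (median 0.05) and 0 rose and 7 fell in the controls (median −0.47). The difference was called for 8 of the 16, all more positive in the clone, and for 11 without control mESC replicate 3. In mESCs both Apex1 libraries were below every control library for 12 of them, where 23.4% of all tested genes were. Egln3, an oxygen sensor that hypoxia induces, rose from 36.9 and 38 CPM to 81.3 and 76.7 CPM (1.08 ± 0.27, FDR 0.0116) and fell in the controls (−0.51). Hk2 (hexokinase 2) fell from 307 and 294 CPM to 154 and 146 CPM (−1.0 ± 0.13), and in the controls by 1.58. The 13 mitochondrially encoded protein genes are listed at 0 in all 10 libraries and were not tested. Of 10 macrophage markers, 3 were tested and 0 were called in the clone.

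The largest rises in the clone, by the rule for named genes, were those of Ttr, Afp, Fgf8, Prss12 and Mixl1. Prss12, a secreted serine protease, rose from 0.0968 and 0.143 CPM to 5.67 and 8.65 CPM (5.86 ± 0.46), and in the controls to 16.5 to 25.3 CPM. The largest falls were those of Cd84, Inhbb, Prmt8, Pramel7 and Mras. Inhbb, a subunit of activin B, fell from 31.3 and 32 CPM to 1.70 and 1.19 CPM (−4.45 ± 0.28, FDR 8.4e-06), Prmt8, an arginine methyltransferase, from 16.9 and 16.2 CPM to 0.912 and 0.745 CPM (−4.31 ± 0.29), and Mras, a small GTPase, from 47.9 and 43.0 CPM to 2.78 and 2.80 CPM (−4.03 ± 0.40). All 3 fell in the controls too, by 5.24, 4.64 and 3.29.

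By the same rule, which takes genes of at least 2 in mean log2 CPM, the genes with the largest differences from the control change included some that moved in opposite directions. Egr1, an immediate early factor, rose in the clone from 8.10 and 10.1 CPM to 35.8 and 33.4 CPM (1.92 ± 0.30) and fell in the controls from 59.3, 64.2 and 124 CPM to 29.6 to 33 CPM, so its EB levels lay close together while its mESC levels did not. Anxa1 (annexin A1) fell in the clone from 10.7 and 9.42 CPM to 2.46 and 1.90 CPM (−2.20) and rose in the controls by 3.11. Tgfb2, a secreted TGF-beta, rose in the clone from 1.61 and 1.72 CPM to 4.80 and 8.91 CPM (2.04 ± 0.37), and in the controls to 39.2 to 78.1 CPM (6.95). Gbp2, a guanylate-binding protein that interferons induce, had 3.49 and 3.73 CPM and then 3.69 and 2.31 CPM in the clone, where control EBs had 22.1, 38.4 and 67.0 CPM (difference −5.53 ± 0.62).

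Against the Neil1 and Neil2 clones, whose EBs were grown in the same way, the stage change of the Apex1 clone differed for 3060 of 17158 genes (17.8%), 1569 more positive (9.14%) and 1491 more negative (8.69%). This fit took 22 libraries of all 4 genotypes, and set the Apex1 clone against the mean of the Neil1 and Neil2 changes. The count rested on the Apex1 libraries, with 1532 and 1261 without EB replicates 1 and 2, and 1038 and 1557 without mESC replicates 1 and 2, and by totals alone the split was 840 against 2177. Among the Neil libraries, mESC replicate 3 of Neil1, clone #11, stood apart from its group, at 94.32 and 94.27 in chi-squared per degree of freedom against 43.37 between the other 2, and the count without it was 3326. EB replicate 1 of Neil2, clone #1, stood apart as well (101 and 54.22 against 25.15), and the count without it was 3790.

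Most pluripotency and formative genes were not called against the Neil clones, where 17.8% of all tested genes were. Of 14 naive genes 1 was called, more positive in the Apex1 clone (median difference −0.05). Of 12 general pluripotency genes 3 were, all more positive (median 0.12), and of 11 formative genes 1 was, more negative (median −0.21). Where endoderm and basement membrane genes were called against the Neil clones, the change was more negative in the Apex1 clone, and where Hox genes were, it was more positive. Of 23 endoderm genes, 10 were called, all more negative in the Apex1 clone, and 5, 5, 5 and 4 without Apex1 EB replicate 1, Apex1 EB replicate 2, Apex1 mESC replicate 1 and Apex1 mESC replicate 2. Of the 16 basement membrane genes, 11 were called, all more negative. Of 36 Hox genes, 15 were called, all more positive, and 6, 7 and 7 without Apex1 EB replicate 2, Apex1 mESC replicate 1 and Apex1 mESC replicate 2. Of 18 matrix genes 6 were more positive, 3 without Apex1 EB replicate 2 or Apex1 mESC replicate 1, and 1 was more negative, a call that every Apex1 library decided. Of 21 streak genes 5 were more positive, 3 without Apex1 EB or mESC replicate 2, and 1 more negative.

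In that fit Apob rose by 6.29 in Neil1 and 6.73 in Neil2 EBs against 1.17 ± 0.61 in the Apex1 clone, a difference of −5.35 ± 0.79 (FDR 0.00152). Fgf5 rose by 6.58 and 7.58 in the Neil clones and by 3.91 in the Apex1 clone from its higher mESC level (difference −3.17 ± 0.50, FDR 0.00147). Col1a1, by contrast, had a log2 change of −1.62 in Neil1 and −0.18 in Neil2 EBs and rose by 2.28 in the Apex1 clone, a difference of 3.17 ± 0.55 (FDR 0.0027). Vim changed by −2.77 and −2.45 in the Neil clones and by −1.43 in the Apex1 clone, a difference of 1.17 ± 0.30 (FDR 0.0172) that was not called without Apex1 EB replicate 2 (0.98) or Apex1 mESC replicate 1 (1.12). T rose by 2.94 in Neil1, 3.06 in Neil2 and 3.74 in the Apex1 clone, and its difference of 0.74 ± 0.66 was not called (FDR 0.494). Mixl1 rose by 1.80 and 1.56 in the Neil clones and by 4.79 in the Apex1 clone, a difference of 3.11 ± 0.47 (FDR 0.00124). Tdgf1 was more positive in the Apex1 clone by 0.98 ± 0.29, a call lost without any of the 4 Apex1 libraries (0.95 to 1.02). The difference of 0.65 ± 0.25 for Pou5f1 was called at FDR 0.0923 and lost in 16 of the 22 fits that left out a library and with the replicate block (0.68, FDR 0.102). Egr1, which fell in control EBs, differed from the Neil clones by 4.75 ± 0.60 (FDR 0.00068).

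**Figure D5:**
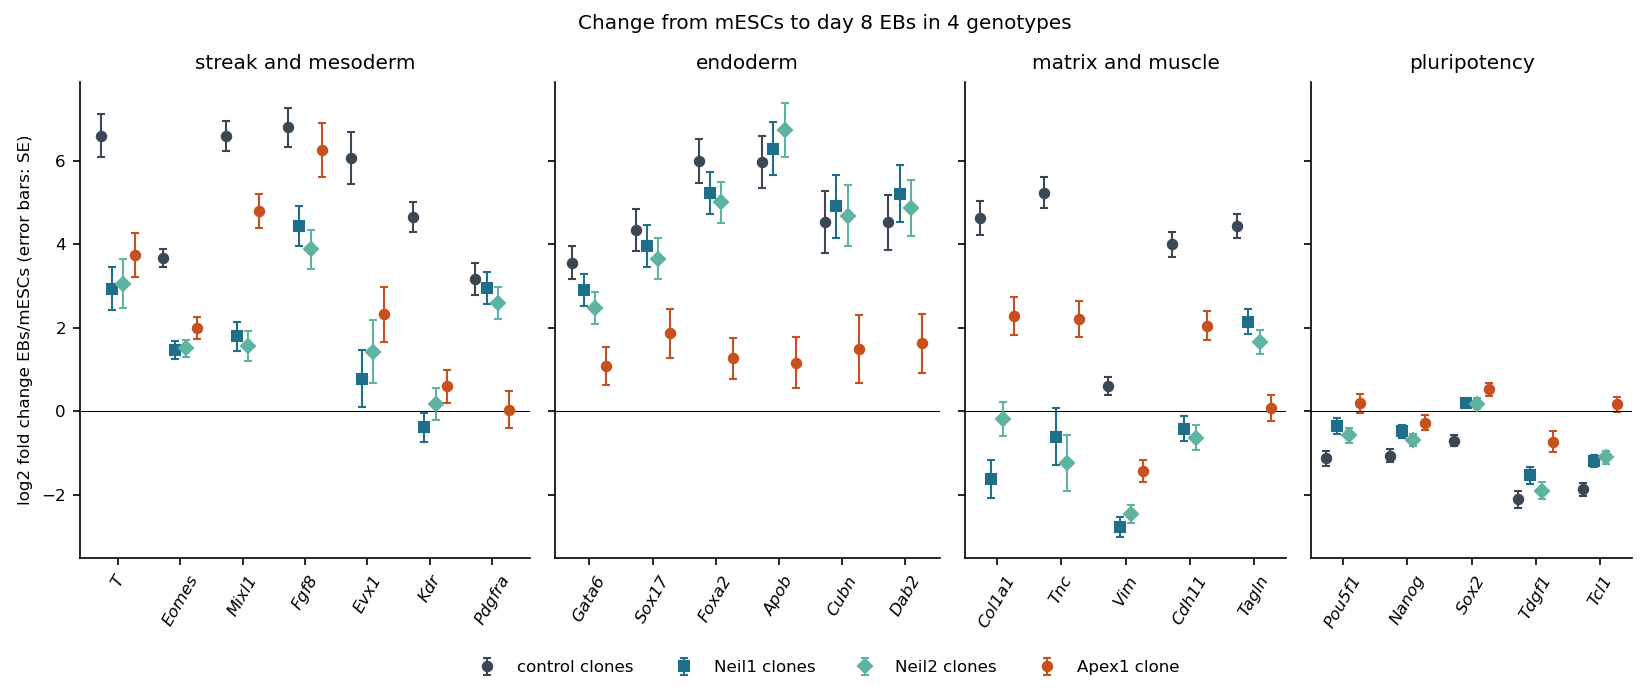
Log2 change from mESCs to EBs (bars are SE) of streak and mesoderm, endoderm, mesenchymal and pluripotency genes in the control, Neil1, Neil2 and Apex1 clones, all from the fit of 22 libraries. Apob rose by 6.29 and 6.73 in the Neil clones and by 1.17 in the Apex1 clone, and Col1a1 rose by 2.28 in the Apex1 clone and not in Neil1 (−1.62) or Neil2 (−0.18).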

How the data were processed

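Total RNA of mESCs and day 8 EBs was made into TruSeq RNA v2 libraries, whose reads keep no strand, and sequenced for 51 cycles. Per the labels and the study's methods, the authors aligned the reads with TopHat 2.0.9 and Bowtie 2.1.0 to NCBIM37 with an iGenomes annotation and tallied genes by HTSeq-count 0.5.4. The deposited values are raw counts for 37991 gene identifiers, of which 37205 have a name in the NCBIM37 annotation used here. Classes that name no gene (not unique, ambiguous or outside genes) held 24.3 to 28.2% of the Apex1 reads and were left out. At 25992707 to 29463154 counts per Apex1 library, genes below 1 CPM rest on few counts.

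Counts were fitted with edgeR 4.0.16 and limma 3.58.1 in R 4.3.3, with filterByExpr, TMM and robust quasi-likelihood tests, on 10 libraries (biological coefficient of variation 0.156) or, for the Neil clones, on 22 (0.206). The limits of FDR 0.1 and absolute log2 0.5 are those of the study's methods. Exact permutation of 2 against 2 libraries cannot go below p = 0.333 and of 2 against 3 below 0.2. Equal numbers of control libraries mark the same clone at both stages, which pairs them by design. Deviations of same-numbered libraries correlated at −0.14, 0.20 and −0.23 in the controls and −0.12 in the Apex1 duplicates. Those of differently numbered libraries ran from −0.38 to 0.31 in the controls and were 0.12 in the Apex1 duplicates. The correlations therefore do not show the pairing. The ratio of Ttr comes from pooled counts.

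On simulated data drawn from these libraries, the Apex1 stage test recovered 67 of 100 genes changed by 1 on the log2 scale and 88 of 100 changed by 2, with 21 unchanged genes called among 16376, and the interaction recovered 41 and 73 with 14 called among 16339. The simulated libraries shared a common mean profile apart from the changed genes and were drawn independently. They hold no clone effect and no technical duplicates, so false calls from these were not measured. The members, gene lists and tests were chosen with earlier results of these data known. Named genes were the first 3 of each list, the largest called rise, fall and interaction of each list and, at a mean log2 CPM of at least 2, the 5 largest rises and falls in the clone, the 5 highest and lowest interactions and the 3 highest and lowest differences from the Neil clones. The alternatives were DESeq2 1.42.0, RLE size factors, library totals, other filters and limits, all genotypes in 1 fit, the Apex1 libraries alone, a replicate block and each library left out in turn. Tables and plots used Python 3.11.15, numpy 2.4.6, pandas 2.3.3, scipy 1.17.1 and matplotlib 3.10.9. Libraries with RA were not analysed here. A result that rests on an item withheld here is not reported.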

Additional observations from a re-analysis of the deposited data

Results flagged for a closer look

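The change from mESCs to EBs differed between the Apex1 clone and the control clones for 4466 genes, and between the Apex1 clone and the Neil clones for 3060, by the interaction term in edgeR. The values below are these differences on the log2 scale, the Apex1 clone minus the controls, for every named gene that was called.

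Among pluripotency and epiblast genes they were 0.77 for Nanog, 1.08 for Esrrb, 1.03 for Dppa3, 2.02 for Tcl1, 1.30 for Pou5f1, 1.21 for Sox2, 1.65 for Utf1, 1.54 for Dppa5a, 1.35 for Tdgf1, −1.75 for Fgf5 and 0.99 for Otx2. Among streak, mesoderm and blood genes they were −2.88 for T, −1.70 for Eomes, −1.84 for Mixl1, −4.37 for Cdx2, −5.56 for Actc1, −2.86 for Flt1, −2.77 for Tal1, −2.29 for Runx1 and −3.90 for Csf1r. Calls were lost for Mixl1 without Apex1 mESC replicate 1 (−1.44), for Actc1 without Apex1 mESC replicate 2 (−1.85) and for Tal1 without Apex1 EB replicate 1 (−2.84) or 2 (−2.65).

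Among endoderm and basement membrane genes they were −2.50 for Gata6, −2.50 for Sox17, −4.76 for Foxa2, −4.84 for Apob, −5.39 for Fgb, −1.75 for Lama1, −2.96 for Col4a1, −1.67 for Sparc, −0.65 for Nid1, −4.49 for Krt8 and −2.39 for Fst, and for the trophoblast factor Gata3 −2.47. The call for Nid1 was lost with the replicate block and in 8 of the 10 fits that left out a library (−0.71 to −0.52), all but those without control EB or mESC replicate 3.

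Among neural and crest genes they were 3.86 for Pax6, −1.67 for Nes, 1.91 for Elavl3, 1.45 for Ina, −3.37 for Pax3, 1.85 for Sox10, −3.61 for Sox9 and −3.32 for Msx1, and for Hoxc8 −5.70. Among genes of mesenchyme and epithelium they were −2.37 for Col1a1, −4.19 for Col3a1, −3.04 for Tnc, −2.06 for Vim, 0.56 for Epcam, 1.18 for Crb3, −3.56 for Cdh2 and −2.14 for Zeb2. Sox10 and Crb3 lost their calls without any library but control EB or mESC replicate 3 (1.5 to 2.0 and 0.97 to 1.40), and with the replicate block (1.83 and 1.11). Col3a1 lost its call without Apex1 EB replicate 1 (−3.65), Apex1 mESC replicate 1 (−4.32) or 2 (−4.03) or control mESC replicate 3 (−3.68). Pax3 and Epcam lost theirs without Apex1 mESC replicate 1 (−3.30 and 0.57).

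In the germline list they were −0.63 for Dazl, 2.21 for Stra8 and 1.36 for Rec8. Among p53 targets they were −0.50 for Cdkn1a, −1.33 for Perp and 2.18 for Gdf15. They were 1.34 for Neil2, 0.56 for Tet2, −1.71 for Tet3, 0.68 for Ccnd2, −1.76 for Cdkn2b, 0.58 for Hk2, 1.59 for Egln3 and 1.83 for Adm. Among signalling targets they were −2.25 for Cyp26a1, −2.13 for Axin2, −1.79 for Id1, −3.96 for Sp5 and −1.43 for Nkd1. Without Apex1 mESC replicate 2 the calls for Tet2 (0.50) and Hk2 (0.57) were lost, without Apex1 EB replicate 1 that for Stra8 (1.77), without Apex1 EB replicate 2 that for Nkd1 (−1.34), and without Apex1 EB or mESC replicate 2 that for Cdkn2b (−1.65 and −1.54). Without any of the 4 Apex1 libraries the calls for Dazl, Cdkn1a, Gdf15, Neil2 and Ccnd2 were lost, and without 3 of them that for Adm (1.53 to 1.91). Control libraries also decided Dazl (−0.49 without EB replicate 3), Gdf15 (1.97 without EB replicate 1, 1.59 without mESC replicate 2), Cdkn1a (−0.37 without mESC replicate 3, −0.54 without mESC replicate 1, −0.47 and −0.44 without EB replicates 1 and 2) and Neil2 (1.18 and 1.35 without EB replicates 1 and 2, 1.08 and 1.22 without mESC replicates 1 and 2). The call for Neil2 was lost with the replicate block as well (1.28).

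Among genes of at least 2 in mean log2 CPM, the 5 highest values were that of Pax6, given above, 3.71 for Napsa, 3.32 for Egr1, 3.26 for Chac1 and 3.19 for AC113316.1, and the 5 lowest were −5.53 for Gbp2, −5.31 for Anxa1, −5.17 for Gbp1, −5.10 for Pcdh7 and −4.91 for Tgfb2. For genes named by their difference from the Neil clones they were −5.72 for S100g, 2.09 for Nxph4 and −3.99 for 9930013L23Rik. AC113316.1 lost its call in 6 of the 10 fits that left out a library (2.56 to 3.64), Nxph4 without any Apex1 library or control mESC replicate 2 (1.80 to 2.28), and S100g without Apex1 mESC replicate 2 (−5.06). Against the Neil clones the differences were 0.65 for Pou5f1, 0.98 for Tdgf1, −3.17 for Fgf5, 3.11 for Mixl1, 1.17 for Vim, −5.35 for Apob, 3.17 for Col1a1, 4.75 for Egr1, 3.63 for Nxph4, −4.47 for 9930013L23Rik and −4.25 for S100g, and the last of these was −3.60 and no longer called without Apex1 mESC replicate 2.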

How the results depend on the processing

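The 4 counts of called genes kept within 1.5 times of their value under DESeq2 (5065 in the Apex1 clone, 6717 in the controls, 4590 differences from the controls, 3347 from the Neil clones), RLE size factors, library totals, and either filter, and the first 3 also with all genotypes in 1 fit, which the comparison with the Neil clones uses throughout. With an absolute log2 above 1 they were 2599, 3933, 2421 and 1529, and with an FDR below 0.05 the difference from the Neil clones fell to 2023. With each library left out in turn they ranged from 3023 to 5898, 6306 to 7480, 2122 to 6494 and 1038 to 3790, in the same order. With the replicate number as a block they were 4710, 6613, 3521 and 2318, and the block took the call from Sox2, Elf5 and Neil2 in the Apex1 clone and gave 1 to Hoxc8 and AC113316.1. It took the call from Nid1, Sox10, Crb3 and Neil2 in the difference from the controls and gave 1 to Hand2, Twist1 and Cd84, and from Pou5f1 in that from the Neil clones. It changed no other call of a named gene in these comparisons. Crossing the numbers of the Apex1 duplicates, an alternative chosen after seeing the data, gave 4725, 6613, 3633 and 2393. In these settings no called value of a named gene reversed. Of the named values in the Apex1 clone, 2592 kept their side of the threshold, 144 lost their call and 38 gained 1, and for the difference from the controls these were 2472, 141 and 33. Of the list counts, 3327 stayed within 1.5 times and 417 did not. Depth limits genes under 1 CPM, such as Pax3 and Fabp7, whose changes rest on few counts.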
